A study of Canis lupus familiaris with 2 samples.

Results

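In cultured MDCK cells, 581 CpG-poor windows of 1000 bp were low in methylation in the untreated culture and methylated in the culture given TGF-beta, out of 1293104 CpG-poor windows with enough data on the 38 autosomes, or 0.0449%. MDCK is an epithelial line from dog kidney. The TGF-beta culture received the growth factor at 5 ng/ml for 30 days and is labelled mesenchymal. The control culture was untreated, was kept for the same 30 days and is labelled epithelial. Both came from the same line, and each gave 1 whole-genome bisulfite library, so the differences below compare these libraries and have no replicate check.

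A window was CpG-poor with fewer than 40 listed CpG sites, and it needed at least 5 sites that had at least 5 calls in both libraries. A call is a read base scored as methylated or unmethylated at a CpG cytosine, and a level is the methylated share of the summed calls. The 581 gain windows had a level of 50% or more in the TGF-beta library, a level under 20% in the control library, and a gain of at least 10 percentage points on each DNA strand. They were chosen on this difference, so their own levels are a description and carry no test. The TGF-beta library held 1019766599 calls and the control library 656122583, and 67.3% of calls on the autosomes were methylated in the TGF-beta library against 65.5% in the control library. Positions are in the canFam3 build.

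Cytosine methylation at CpG sites is copied after each cell division, and in CpG-poor mammalian DNA it is usually high. Short stretches of low methylation outside CpG islands are known from many cell types as places where transcription factors bind, often distal regulatory elements such as enhancers. Cultured cells often also hold long partially methylated domains, in which levels are intermediate over large distances. TGF-beta signals through SMAD proteins and drives epithelial-mesenchymal transition, in which epithelial cells lose junctions and gain motility. A low window can therefore lie in different surroundings, and the surroundings of the 581 windows are described below. Genes near the windows are not analysed here, because the gene table used here is of another genome build.

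The median level of the gain windows was 56.5% in the TGF-beta library (quartiles 53.0% and 63.6%, highest 96.1%) and 16.1% in the control library (quartiles 12.7% and 18.3%, lowest 0.535%). The median gain was 42.2 points, within a range of 30.5 to 88.8. Many of the windows thus stood near the limits that chose them. In 226 windows the TGF-beta level was under 55%, and in 356 the control level was 15% or more. At 60% or more in the TGF-beta library and under 10% in the control library there were 35 windows. The TGF-beta level was 80% or more in 10 windows, and the control level was under 5% in 20.

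The gain windows made up 0.67% of the 86720 that were under 20% in the control library. Of the rest of these 86720 low windows, 64508 were under 20% in the TGF-beta library too, 21557 were between 20% and 50%, and 74 reached 50% but missed the gain on each strand. The opposite rule, under 20% in the TGF-beta library and 50% or more in the control library with a loss on each strand, took 303 windows, or 0.0234%. The ratio of gain to opposite windows was 1.92.

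**Figure D1:**
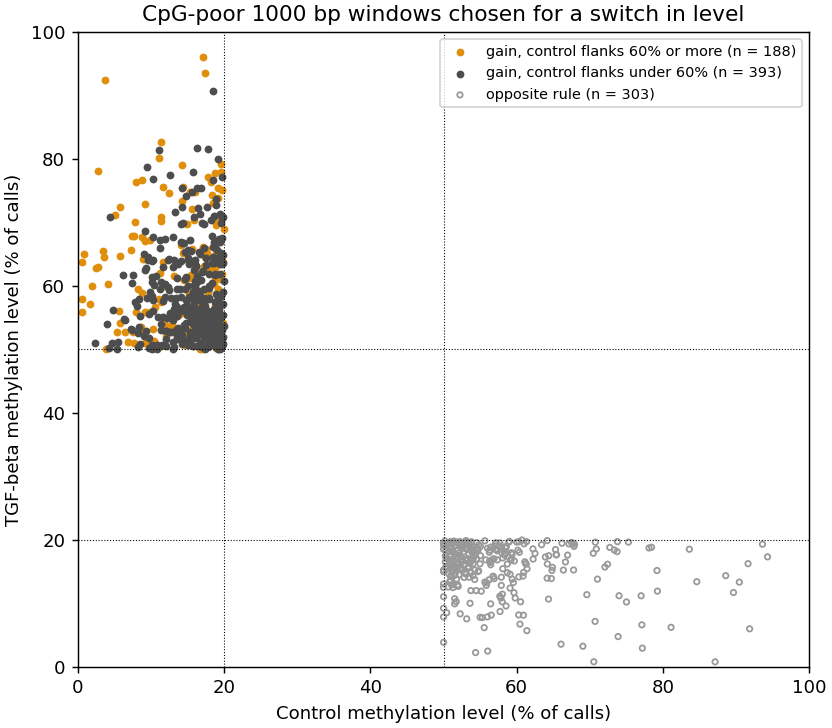
Methylation level of each chosen window in the TGF-beta library (vertical axis, percent of calls) against the control library (horizontal axis, percent of calls), with dotted lines at the 20% and 50% limits. The 581 gain windows are filled points, orange for the 188 with control flanks at 60% or more and dark grey for the other 393, and they crowd towards the corner set by the limits, as do the 303 opposite windows (open circles).

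Just inside the control limit, windows on chromosome 1 at 20419001, chromosome 6 at 57127001 and chromosome 22 at 47342001 had control levels of 19.93%, 19.92% and 19.92%. Just outside it, windows on chromosome 31 at 6161001, chromosome 26 at 21853001 and chromosome 13 at 4646001 had control levels of 20%. Just inside the TGF-beta limit 3 windows were at 50%, and just outside it windows on chromosome 27 at 5741001, chromosome 4 at 40855001 and chromosome 17 at 49990001 were at 49.90%, 49.85% and 49.84%. Windows that met each other limit but had a control level of 20% to 25% numbered 760, and those with a TGF-beta level of 45% to 50% numbered 330. The limits therefore separate windows with nearly equal values.

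The windows rested on few sites and moderate depth. They held a median of 7 listed sites (range 5 to 39), against 7 in windows low in both libraries and 10 in all CpG-poor windows. Summed calls per gain window had a median of 230 in the TGF-beta library (range 46 to 1899) and 182 in the control library (range 27 to 1069). At least 200 calls in each library were present in 204 of the 581. In 112 windows the exact 95% binomial interval lay wholly at or above 50% in the TGF-beta library and wholly under 20% in the control library. These intervals cover counting error only and treat calls as independent. Reads amplified by PCR are not independent molecules, and a read can give calls at several sites of a window, so the intervals can be too narrow.

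The single CpG sites inside the windows were mixed. Of 4594 sites, 4120 (89.7%) were higher in the TGF-beta library, and 23 were lower by 20 points or more. A site level under 20% was found at 13.3% of sites in the TGF-beta library and at 68.2% in the control library. A site level of 50% or more was found at 62.1% in the TGF-beta library and at 12.9% in the control library. A switch at the site itself, to 50% or more in the TGF-beta library against under 20% in the control library, was seen at 1539 sites (33.5%). Each site of the window switched in this way in 2 windows, and no site did in 99. The SD between the sites of a window had a median of 27.6 points in the TGF-beta library and 20.2 points in the control library.

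Because deeper sites weigh more in summed calls, the unweighted mean of site levels is a useful second measure. By that mean the gain windows had a median of 56.1% in the TGF-beta library and 17.8% in the control library, and 273 of the 581 (47.0%) met both level limits. Sites with too few calls in either library to enter the rule lay in the same windows. Pooled over 430 such sites, the level was 60.4% in the TGF-beta library (3090 calls) and 31.9% in the control library (3422 calls). Such a site can be well covered in a single library, so the pooled calls of the libraries can come from different sites. Whether these sites shared the direction was therefore not tested. The pooled control level was above the 20% limit that the rule set on the summed calls of a window.

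A CpG has a cytosine on each strand, and each is covered by its own reads. The gain had a median of 42.4 points on the first cytosine of the pair and 42.3 points on the second, and it was 20 points or more on each in 521 windows and 30 points or more on each in 398. The rule asked for 10 points on each, and its level limits set a gain of more than 30 points on the summed calls. These strand values therefore largely follow from the choice of windows.

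The surroundings of the gain windows were measured in flanks from 500 bp to 5 kb beyond each window edge, with other gain windows left out, so these sites took no part in the rule. They come from the same libraries and the same contrast, and no test was made of them. Flank levels had a median of 64.2% in the TGF-beta library and 48.0% in the control library around gain windows. The median difference within a window's flanks was 7.58 points (quartiles 1.15 and 18.8), and flanks were higher in the TGF-beta library around 467 of the 581 (80.4%). Around windows low in both libraries, flanks were at 37.7% in the TGF-beta library and 37.1% in the control library, with a median difference of 0.471 points. Around opposite windows they were at 51.0% and 51.5%, with a median difference of 0.219 points. Over all CpG-poor windows the median difference of flanks was 0.659 points, and flanks were higher around 58.5%.

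The control flanks set apart different kinds of surroundings. In 188 gain windows (32.4%) the control flanks were at 60% or more, in 211 (36.3%) at 40% to 60%, and in 182 (31.3%) under 40%. The first share depended on the processing, at 15.6% in windows of 2000 bp, 58% in windows of 500 bp, 67.0% with at least 10 kept sites and 68.6% with limits of 60% and 10%. Among windows low in both libraries the classes made up 9.85%, 31.2% and 59.0%. Over all CpG-poor windows they made up 54.3%, 25.8% and 19.9%, and 39.3% of opposite windows had control flanks at 60% or more. Gain windows thus came more often from methylated surroundings than the low windows that stayed low. With the windows as defined above, they did so less often than CpG-poor windows at large. The share of CpG-poor windows at large was not computed under the other settings. Per 1000 windows under 20% in the control library, 21.1 were gain windows where control flanks were at 60% or more (exact 95% binomial interval 18.2 to 24.3), 7.56 where they were at 40% to 60% (6.58 to 8.65) and 3.65 where they were lower (3.14 to 4.22). These intervals, like those on shares of windows below, treat windows as independent. Yet 35.6% of gain windows started within 100 kb of another gain window, and windows of a library are not replicates. The opposite windows followed the same order: per 1000 windows under 20% in the TGF-beta library, 10.8, 3.11 and 1.78 were opposite windows where the TGF-beta flanks were at 60% or more, at 40% to 60% and lower. The same order was thus seen in both sets of windows.

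In the 188 windows with methylated flanks, the libraries differed mainly in the window and its near surroundings. Their flanks, which start 500 bp beyond the window, had a median of 85.9% in the TGF-beta library and 84.5% in the control library, a median difference of 1.54 points, while the windows themselves had a median of 58.2% in the TGF-beta library and 15.6% in the control library. Averaged over sites in bins of 100 bp, the control level was under 60% from 700 bp before to 800 bp after the window centre, with its lowest bin at 9.74%. The TGF-beta level in the bins of the window itself lay between 57.1% and 62.9%, so a dip remained. The difference between the libraries fell with distance, at 10.1 points from 500 to 1500 bp off the centre, 3.86 points from 1500 to 2500 bp and 2.65 points from 3500 to 4500 bp.

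Around most of the other 393 windows the surroundings gained too, with flanks higher in the TGF-beta library around 342 and by 10 points or more around 237. Where control flanks were at 40% to 60%, flanks had a median of 63.4% in the TGF-beta library and 47.7% in the control library, and they were higher in the TGF-beta library around 186 of 211. Where control flanks were under 40%, they had a median of 45.3% in the TGF-beta library and 33.3% in the control library, and were higher around 156 of 182. In rings around all 393 the difference was 14.1 points from 500 to 1500 bp off the centre and 11.8 points from 3500 to 4500 bp.

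**Figure D2:**
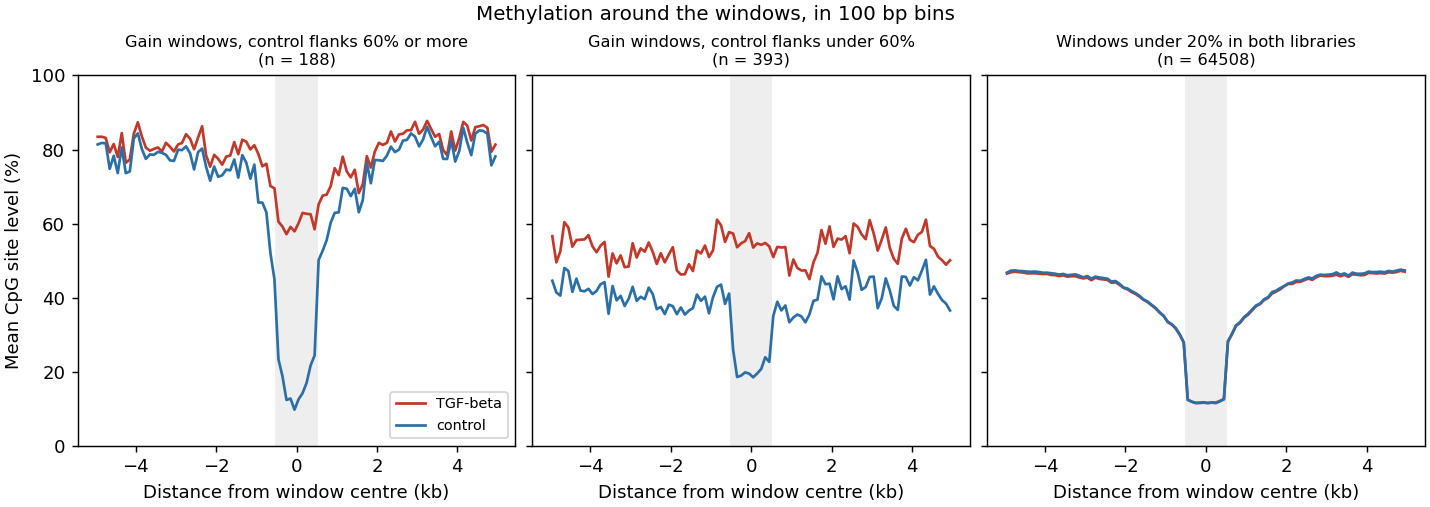
Mean CpG site level in percent against the distance from the window centre in kb, in bins of 100 bp, for the TGF-beta library (red) and the control library (blue); the shaded band is the window itself, which chose the sets. With control flanks at 60% or more (188 windows) the lines draw closer with distance from a dip whose lowest control bin is 9.74%, with lower control flanks (393 windows) the TGF-beta line stays above the control line over the 5 kb shown on each side, and for the 64508 windows low in both the lines overlap.

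Rings around all 581 windows, with neighbouring gain windows left in, showed how the difference fell with distance. Mean site levels at 500 to 1500 bp from the centre, just outside the window, were 61.4% in the TGF-beta library and 49.1% in the control library, a difference of 12.4 points. At 1500 to 2500 bp the difference was 8.82 points, and at 3500 to 4500 bp it was 7.97 points. Around windows low in both libraries the same rings differed by -0.149, -0.263 and -0.391 points. Around opposite windows the first ring differed by -3.23 points and the last by -0.451.

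Directly adjacent windows often gained as well. Of 729 neighbouring CpG-poor windows that were not gain windows themselves, 224 (30.7%) were higher by 20 points or more in the TGF-beta library, against 2.06% of the neighbours of all CpG-poor windows. Lower by 20 points or more were 8 of the 729. Among neighbours of windows low in both libraries, 2.19% were higher by 20 points or more. By class, the share was 19.2% (55 of 286) where control flanks were at 60% or more, 43.4% (112 of 258) at 40% to 60% and 30.8% (57 of 185) where they were lower. Runs of adjacent gain windows numbered 13, of 2 windows each and none longer. They held 26 of the 581 (4.48%). Runs were not counted for other sets of windows, so whether this share is high was not tested.

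At a larger scale, many gain windows lay in 100 kb domains that were higher in the TGF-beta library. With all gain windows left out of the domain's sum, 207 of 581 (35.6%) lay in a domain that was higher by 10 points or more in the TGF-beta library, against 1.93% of all CpG-poor windows. The share was 1.07% for windows low in both libraries and 2.97% (9 of 303) for opposite windows. In domains lower by 10 points or more lay 2 gain windows, or 0.344%, and 15 opposite windows, or 4.95%, against 1.3% of all CpG-poor windows. Of the 207, 13 had control flanks at 60% or more, 119 at 40% to 60% and 75 lower. The flanks of these 207 gained a median of 20.9 points, and those of the other 374 a median of 2.58 points. The median domain around a gain window was at 64.1% in the TGF-beta library and 49.8% in the control library.

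**Figure D3:**
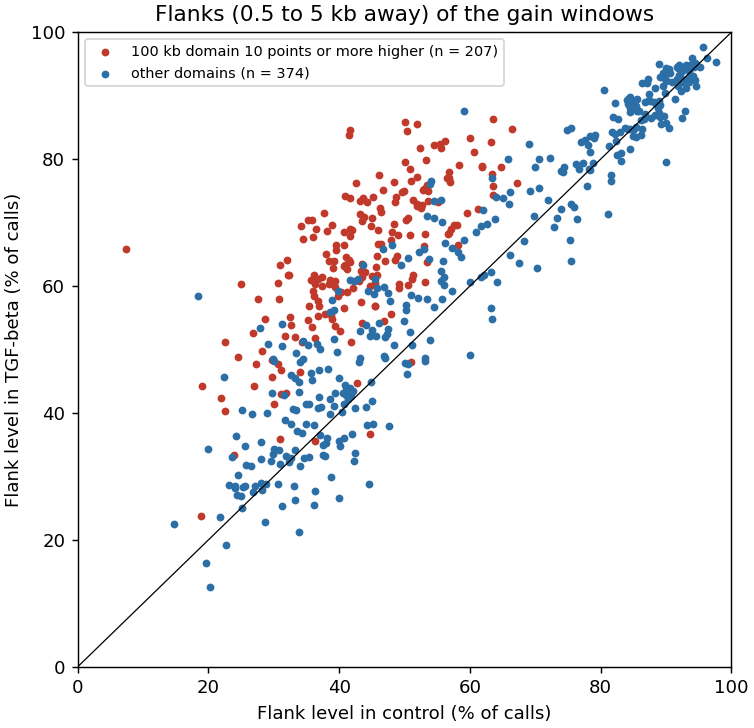
Level of the flanks of each gain window in the TGF-beta library (vertical axis, percent of calls) against the control library (horizontal axis, percent of calls), with the line of equal levels. The 207 windows in 100 kb domains that were 10 points or more higher (red) lie mostly well above the line at intermediate control levels, and many of the other 374 (blue) lie close to it, in particular at high control levels.

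Blocks of at least 3 adjacent domains that each gained 10 points or more numbered 46, and 29 of them held a gain window. They held 119 of the 581 (20.5%), against 0.743% of CpG-poor windows and 0.880% of windows under 20% in the control library. Per 1000 windows low in the control library, 156 inside the blocks and 5.37 outside them were gain windows. The blocks were found in the same contrast and include the gain windows, so these rates describe where the windows lie. The block with the most was on chromosome 1 from 19900001 to 20500000, where 19 of 41 low windows were gain windows. Chromosome 15 from 53700001 to 54600000 held 11 of 44, and chromosome 13 from 14800001 to 15300000 held 11 of 23. Chromosome 27 from 22700001 to 24100000 held 10 of 28, and chromosome 33 from 15900001 to 16200000 held 8 of 19. Chromosome 36 from 22800001 to 23200000 held 5 of 38, chromosome 22 from 3800001 to 4100000 held 5 of 31, and chromosome 30 from 14600001 to 14900000 held 5 of 19. Among the blocks with 4 gain windows, the one on chromosome 34 from 35400001 to 35900000 had the fewest low windows (7). The one on chromosome 20 from 34800001 to 35300000 had the most (58).

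Gain windows were found on each of the 38 autosomes. They outnumbered the opposite windows on 34, equalled them on chromosome 10 with 8 of each, and were fewer on chromosome 16 (7 against 15), chromosome 19 (12 against 14) and chromosome 21 (10 against 16). Chromosome 1 had the most, with 45 gain windows and 18 opposite ones. Relative to the windows low in the control library, the rate was 6.70 per 1000 over all autosomes and ran from 2.39 per 1000 on chromosome 23 to 16 per 1000 on chromosome 27. On chromosome 27, where 22 windows gained and 3 did the opposite, 10 of the 22 lay in the block named above. Within 100 kb of another gain window started 207 of the 581 (35.6%), and within 10 kb 88 (15.1%). These distances were not measured for other sets of windows, so whether the shares are high was not tested.

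**Figure D4:**
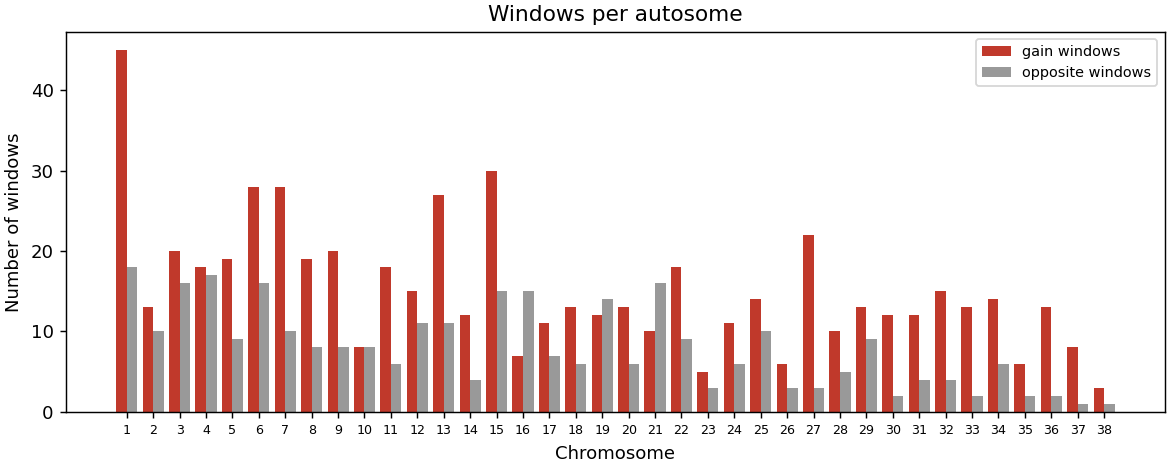
Number of gain windows (red bars) and opposite windows (grey bars) on each autosome. Gain windows were more numerous on 34 of 38, with the widest margins in counts on chromosomes 1, 27, 7 and 13.

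The share of gain windows near unmethylated CpG-dense sequence was close to that of all CpG-poor windows. CpG-dense windows, with 40 or more listed sites, stand in for islands here. A CpG-dense window under 20% in the control library lay within 2 kb of 15 gain windows (2.58%, exact 95% binomial interval 1.45 to 4.22), against 3.87% of windows low in both libraries and 3.21% of all CpG-poor windows. It depended on the window grid, at 5.71% with windows starting 500 bp later and 11.5% in windows of 500 bp. More than 50 kb from such a window lay 456 (78.5%), against 90.1% of windows low in both libraries and 68.5% of all CpG-poor windows. The CpG-dense windows next to the 15 had a median level of 3.26% in the TGF-beta library and 0.491% in the control library, and none of the 15 gained 20 points, against 0.591% of all 13038 low CpG-dense windows. The flanks of these 15 were higher in the TGF-beta library around 4 of them, and none of the 15 lay in a domain that gained 10 points.

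The domains around gain windows held a median of 8.25 CpG sites per kb, against 7.35 for windows low in both libraries and 9.99 for all CpG-poor windows. With control flanks at 60% or more the median was 10.8 per kb. The spacing of CpG sites gives a rough sign of repeated sequence without a genome. A spacing of 6 successive CpG sites that recurred at least 10 times on the autosomes was found in 38 of the 485 gain windows with 6 or more listed sites (7.84%), in 4.20% of windows low in both libraries and in 11.9% of all CpG-poor windows. Among the 273 windows that also met the limits by the mean of site levels it was found in 7 of 232 (3.02%). A window with more sites offers more such spacings, and the shares were not adjusted for this. Listed sites had a median of 7 in gain windows and 10 in all CpG-poor windows.

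Depth differed between the libraries, and the gain windows were close to the low windows in this. Relative to the median of CpG-poor windows, the log2 of calls in the TGF-beta library over calls in the control library had a median of -0.17 in gain windows, -0.17 in windows low in both libraries and -0.37 in opposite windows. In 1 Mb bins where this value was -0.35 or lower lay 38 gain windows (6.54%), against 5.69% of all CpG-poor windows. The part of depth in the result was not tested.

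The 8 windows named next had the largest gains among the 102 gain windows with at least 10 kept sites and 200 calls in each library. All of their 154 kept sites were higher in the TGF-beta library, and 107 switched to 50% or more, against under 20% in the control library. In 7 of the 8 the control flanks were at 60% or more, as they were in 67.0% of all gain windows with at least 10 kept sites. The change of their 100 kb domains ran from -6.59 to 3.94 points.

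On chromosome 14 from 40417001 to 40418000 the level was 76.8% in the TGF-beta library (exact 95% binomial interval 74.5 to 79.0, 1397 calls) and 10.2% in the control library (8.04 to 12.8, 664 calls), over 22 sites. It lay between a methylated and an unmethylated stretch. The window before it was at 84.0% in the TGF-beta library and 75.1% in the control library, and the CpG-dense window after it, with 86 listed sites, at 8.53% and 6.34%. The border between methylated and unmethylated sequence thus stood on different sides of this window in the libraries.

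On chromosome 6 from 18193001 to 18194000 the level was 71.3% in the TGF-beta library (67.0 to 75.2, 494 calls) and 5.07% in the control library (3.24 to 7.50, 454 calls), over 14 sites. The window before it was a gain window too, at 58.9% in the TGF-beta library and 8.83% in the control library, and the window after it was at 59.8% and 21.3%. Beyond these the levels of both libraries were close, with 93.5% and 87.6% on one side and 90.7% and 94.0% on the other. The stretch that differed was thus 3 windows long, inside DNA that was methylated in both cultures.

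On chromosome 9 from 4613001 to 4614000 the level was 79.0% in the TGF-beta library (76.4 to 81.5, 997 calls) and 14.2% in the control library (10.9 to 18.2, 372 calls), over 24 sites. Its single sites had a median of 86.8% in the TGF-beta library (range 43.5% to 100%) and 3.33% in the control library (range 0% to 66.7%). The same chromosome held a window from 22137001 to 22138000 with the lowest control level of the 8. It was at 63.8% in the TGF-beta library (59.4 to 68.1, 484 calls) and 0.612% in the control library (0.0742 to 2.19, 327 calls), and no single site exceeded 4.17% in the control library. Its sites in the TGF-beta library ran from 40.9% to 89.8%, so that each site was methylated in part of its reads. The surroundings of this window differed as well, with flanks at 80.0% in the TGF-beta library and 65.8% in the control library. The window before it was at 93.8% and 67.9%, and the window after it, with 3 kept sites, at 17.9% and 2.17%.

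On chromosome 1 from 114028001 to 114029000 the level was 65.6% in the TGF-beta library (63.1 to 68.1, 1427 calls) and 3.49% in the control library (2.11 to 5.39, 545 calls), over 29 sites. With the next window it formed the run with the largest summed gain, from 114028001 to 114030000, at 68.0% in the TGF-beta library and 7.82% in the control library over 44 sites. The windows on either side of that run were at 89.4% and 85.7% in the TGF-beta library and at 51.3% and 63.5% in the control library. The flanks of the first window were at 92.0% in the TGF-beta library and 86.4% in the control library.

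The remaining 3 named windows lay on chromosomes 4, 37 and 12. On chromosome 4 from 4626001 to 4627000 the level was 72.9% in the TGF-beta library and 9.22% in the control library, over 11 sites of which 4 switched. On chromosome 37 from 13190001 to 13191000 it was 70.1% and 7.78%, over 12 sites. On chromosome 12 from 4622001 to 4623000 it was 64.6% and 3.55%, over 30 sites, and the window after it was low in both libraries, at 9.44% in the TGF-beta library and 8.28% in the control library. By the mean of site levels the control level of the chromosome 4 window was 21.0%, above the 20% limit, and those of the other 7 stayed under it.

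**Figure D5:**
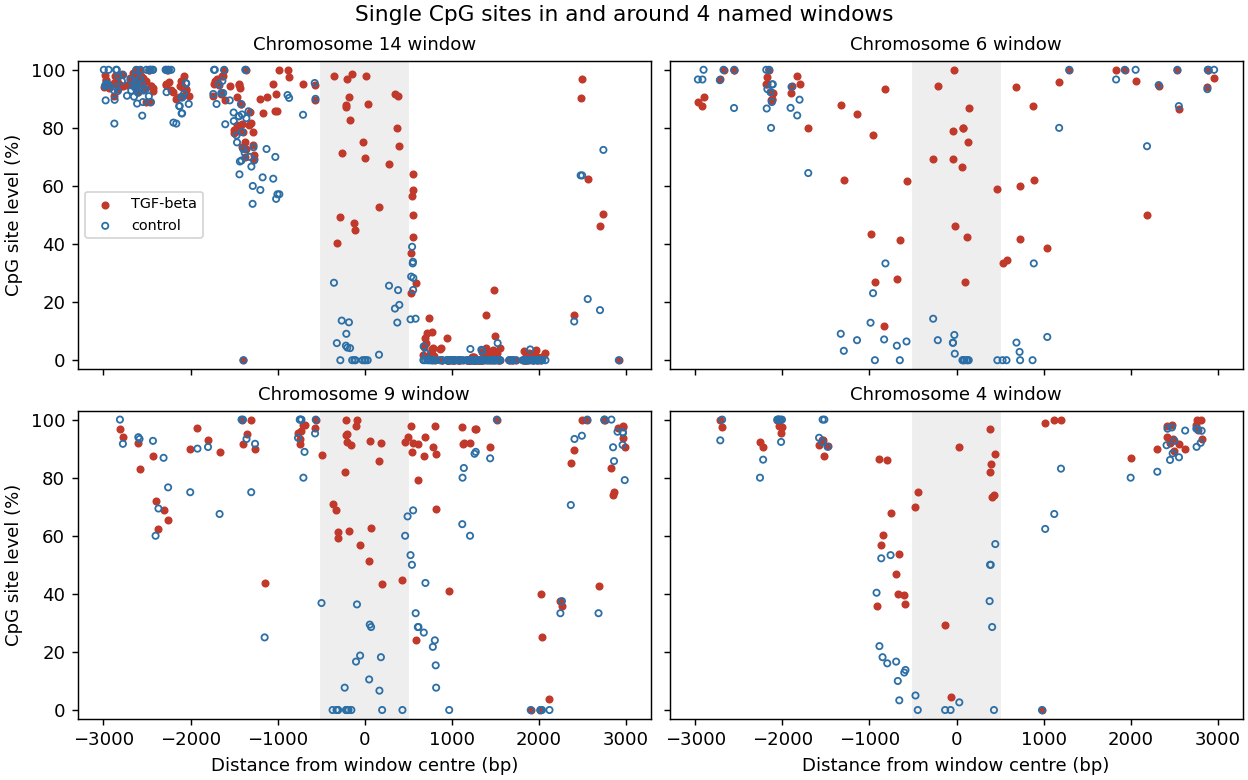
Level of single CpG sites in percent against the distance from the window centre in bp, in the TGF-beta library (filled red) and the control library (open blue), for the 4 named windows with the largest gains; the shaded band is the window. Inside the bands the red points lie above the blue ones at each site. Outside them levels vary, with low control sites on both sides of the chromosome 6 window, before the chromosome 4 window and after the chromosome 9 window, and both libraries near 0 over a CpG-dense stretch after the chromosome 14 window.

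The run second in summed gain, on chromosome 8 from 69249001 to 69251000, was at 68.4% in the TGF-beta library (63.9 to 72.6, 465 calls) and 10.9% in the control library (8.07 to 14.4, 402 calls). Its flanks averaged 82.5% in the TGF-beta library and 56.2% in the control library, so its surroundings differed as well. The next in order, on chromosome 6 from 18192001 to 18194000, was at 66.0% in the TGF-beta library (62.7 to 69.2, 859 calls) and 6.51% in the control library (4.84 to 8.54, 737 calls), with flanks averaging 90.4% and 86.9%.

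How many windows qualified depended on how calls were weighted. Limits met both by summed calls and by the mean of site levels left 273 gain and 60 opposite windows, and equal calls per site in both libraries gave 467 and 122. Among those 273, 45.1% lay in domains that gained 10 points or more and 41.0% had control flanks at 60% or more.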

How the data were processed

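Whole-genome bisulfite libraries of MDCK cells, 1 for TGF-beta and 1 for the control, were used; groups follow the labelled agent. The deposited values are counts of methylated and unmethylated calls per CpG cytosine, made by the authors, 1 line per strand. The submitters' processing notes name Bismark, Bowtie 0.12.8 and canFam3, but SOAPaligner2 is the aligner per the labels' protocol. Whether duplicates were removed or overlapping mates trimmed is not given in the sources used here, and either would change how independent calls are. Column 3 was taken as methylated because mitochondrial DNA, at 0.329% in the TGF-beta library and 0.211% in the control library, was almost free of it.

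Adjacent cytosines were joined into 23477970 autosomal CpG sites, 91.1% with both positions listed, and runs that could not be paired (0.00680% of calls) and 1 line per file without a chromosome were left out. Summed calls, means of site levels, flanks and domains were computed with numpy 2.4.6, pandas 2.3.3 and scipy 1.17.1 under Python 3.11.15. The code of the window rule was run on simulated calls with a large planted change and no spread between the sites of a changed window. That run checks the code and says nothing on the windows found here. No test between conditions was possible with 1 library each, and p-values are not given. The windows named are the 8 largest gains among gain windows with at least 10 kept sites and 200 calls in each library, and the 3 longest runs, with ties ordered by summed gain. The windows and measures were chosen with earlier results of these data known. Genes and genome sequence are not used here.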

Additional observations from a re-analysis of the deposited data

How the results depend on the processing

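Gain windows numbered 581 and opposite windows 303, and gain windows were the more numerous under each of 13 alternatives, at 1.76 to 4.55 times the opposite windows. Both counts stayed within 1.5 times of those values with 20 points on each strand, no requirement on strands, windows of 500 bp, windows starting 500 bp later, fewer than 20 listed sites, and sites of very high depth left out. Gain and opposite windows numbered 115 and 41 with at least 10 kept sites, 35 and 14 with stricter levels (10% and 60%), 314 and 126 in windows of 2000 bp, and 273 and 60 with limits met by both summed calls and mean site levels, an alternative chosen after seeing the data. Opposite windows alone moved by more than 1.5 times with at least 10 calls per site (188, beside 435 gain windows), mean site levels (99, beside 396) and equal calls per site (122, beside 467). Of the 581, 372 remained gain windows with at least 10 calls per site, 273 by mean site levels and 355 at equal calls per site.

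The share of gain windows with control flanks at 60% or more was 32.4% and moved outside its interval with at least 10 calls (43.2%), at least 10 kept sites (67.0%), stricter levels (68.6%), equal calls (41.97%), mean site levels (38.9%), both measures (41.0%), windows of 2000 bp (15.6%) and windows of 500 bp (58%), and the cause was not tested. No paired analysis was possible because each group has 1 library, and for the same reason no library could be left out.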

Other observations

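Among the 10 gain windows at 80% or more in the TGF-beta library, picked after their values were seen, 5 had control flanks at 60% or more. They held 5 to 9 kept sites and 52 to 217 control calls. The highest, on chromosome 7 from 364001 to 365000, was at 96.1% in the TGF-beta library (92.8 to 98.2, 232 calls) and 17.1% in the control library (12.3 to 22.7, 217 calls), with flanks at 93.1% and 92.2%. The largest gain of all was on chromosome 27 from 21533001 to 21534000, at 92.5% in the TGF-beta library (88.6 to 95.4, 254 calls) and 3.75% in the control library (0.780 to 10.6, 80 calls), with flanks at 94.5% and 94.2%. The first was above the level of its flanks and the second just under it.

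The window on chromosome 21 from 36676001 to 36677000 shows how weighting acts: it was at 81.8% in the TGF-beta library and 16.3% in the control library by summed calls, and at 56.3% and 43.9% by the mean of its 5 site levels.

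Chromosome X was outside the rule. There 26 windows met the limits for a gain and 19 those for the opposite change, among 69376 CpG-poor windows, of which 7831 were under 20% in the control library.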
